A study of Rattus norvegicus with 4 samples.

Results

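The second messengers cAMP and cGMP carry the signals of many hypothalamic hormones into pituitary cells. *Gnas* encodes the stimulatory G protein alpha subunit that links receptors to the adenylyl cyclases (Adcy genes), protein kinase A (PKA) is the main cAMP effector, and phosphodiesterases (Pde genes) break the messengers down. Regulators of G protein signalling (Rgs genes) shorten the activity of the G proteins upstream, most of them acting on the inhibitory and Gq classes. The genes of these families were taken by their symbols from single-cell RNA sequencing counts of rat anterior pituitary cells: 61 of 29509 gene symbols matched, and the 54 with at least 1 unique molecule (UMI) in 10 or more cells were kept. These were 9 adenylyl cyclases, 20 phosphodiesterases, 18 Rgs genes, the PKA catalytic genes *Prkaca* and *Prkacb*, the regulatory genes *Prkar1a*, *Prkar1b*, *Prkar2a* and *Prkar2b*, and *Gnas*. The symbols *Adcy8*, *Pde4c*, *Pde6a*, *Pde6b*, *Pde6h*, *Rgs13* and *Rgs21* were seen in fewer cells.

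The cells came from untreated postpubertal Sprague Dawley rats, with 1 pool of 4 pituitaries from females aged 44 days, in diestrus, and 1 pool of 4 from males aged 59 days. Each pool was run on 2 lanes of a droplet instrument, so the lanes of a sex were technical replicates of the same cells, and sex, pool and age cannot be told apart. Of the 7861 cells deposited, 6845 were kept: 2318 folliculostellate cells (FSC), 792 corticotrophs (C in the plots), 237 gonadotrophs (G), 87 thyrotrophs (T), 1885 somatotrophs (S), 484 lactotrophs (L), 547 leukocytes (Le), 134 endothelial cells (EC) and 361 erythrocytes (E). Cells were assigned by the marker genes that the study used. Among these types, markers outside that set were highest as follows: *Kdr* was at 1340 UMIs per 1000000 UMIs of the type (UPM) in endothelial cells, *Csf1r* at 664 UPM in leukocytes, *Sox2* at 206 UPM in FSC, *Tbx19* at 206 UPM in corticotrophs and *Nr5a1* at 178 UPM in gonadotrophs. Posterior pituitary cells and melanotrophs, set aside from these types, held *Sox2* at 220 and 99.4 UPM. *Aldh1a1* was at 337 UPM in FSC, but also at 56.8 UPM in lactotrophs and 167 UPM in pericytes, likewise set aside. The male-specific gene *Eif2s3y* had 0 and 1 UMIs in the female lanes and 1774 and 1771 in the male lanes. *Ddx3y*, the other Y-linked gene that the study named, was low and did not separate the lanes. Its UMIs were most in corticotrophs, with 5 and 3 in the female and 2 and 8 in the male lanes. The kept cells held 16146870 to 19755340 UMIs per lane, 30 barcodes occurred in more than 1 lane, and median depth ran from 6482 UMIs in leukocytes to 13662 in somatotrophs. Hormone and globin transcripts took 65.8% of erythrocyte UMIs, 30.2% in somatotrophs and 27.5% in lactotrophs, and under 1% in FSC, leukocytes and endothelial cells, which lowers every other gene's UPM to that extent.

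The first question was in which cell types each signalling gene was expressed. UMIs were summed per cell type and pool, and each of 8 types was set against the mean of the other 7 (erythrocytes were left out of the fit) with edgeR's quasi-likelihood test at an adjusted p limit of 0.001. That mean is taken over log levels, so types with few or no UMIs of a gene pull it down. A type can therefore pass while other types stand above it. *Adcy2* passed in somatotrophs at 11.6 UPM, below corticotrophs (48.0), FSC (13.2) and thyrotrophs (12.3). Enough counts were present for 46 of the 54 genes: 7 of 9 cyclases, 15 of 20 phosphodiesterases, 17 of 18 Rgs genes and all of *Gnas* and the PKA genes. *Adcy1*, *Adcy3*, *Pde11a*, *Pde1b*, *Pde3a*, *Pde6c*, *Pde6g* and *Rgs14* were too low to test. A gene found in 1 type could pass the count filter through that type alone, so the number of genes called is a description of the tested set. Of the 46, 41 passed in at least 1 type, and *Adcy9*, *Pde4a*, *Prkar1a*, *Prkar2a* and *Rgs8* did not. The share of all genes that passed in at least 1 type was not counted, so nothing is read from the 41.

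Read against all 13589 genes tested, the share of signalling genes called higher was above the background in corticotrophs, somatotrophs, lactotrophs, endothelial cells and leukocytes. It was slightly above the background in gonadotrophs and slightly below it in FSC and thyrotrophs. In corticotrophs 9 of 46 were higher (19.6%, against 8.94% of all genes) and 4 lower (8.70%, against 2.61%). In somatotrophs 9 were higher (19.6%, against 9.02%) and 2 lower (4.35%, against 2.63%), and in lactotrophs 7 were higher (15.2%, against 6.29%). FSC had 7 higher, which is 15.2% beside 16.5% of all genes, and 3 lower, which is 6.52% beside 3.67%. Gonadotrophs had 4 higher (8.70%, against 6.48%) and thyrotrophs 1 (2.17%, against 3.27%). By edgeR 0 of 46 were lower in gonadotrophs (1.09% of all genes), thyrotrophs (0.464%) and lactotrophs (1.37%), with 9, 6 and 6 lower at an unadjusted p under 0.05 and 1, 0 and 0 called by DESeq2. In leukocytes 11 were higher (23.9%, against 17.9%) and 4 lower (8.70%, against 9.60%), and in endothelial cells 10 were higher (21.7%, against 12.1%) and 6 lower (13.0%, against 5.52%). The median log2 fold change of the 46 was -0.91 in leukocytes beside -0.17 for all genes, 0.23 beside 0.06 in corticotrophs, 0.25 beside 0.08 in lactotrophs and -0.14 beside 0.13 in FSC.

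**Figure D1:**
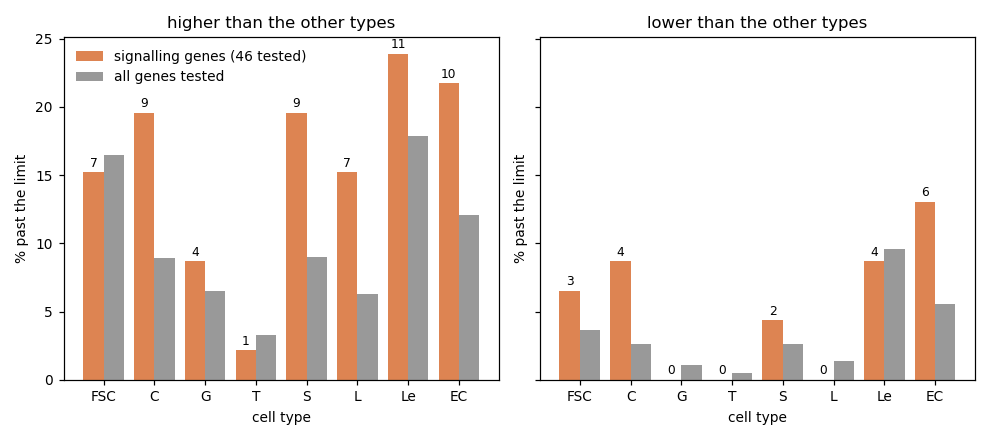
Percentage of the 46 tested signalling genes (and of all 13589 tested genes) that passed the 0.001 limit above or below the mean of the other types, for each of 8 cell types. The shares in corticotrophs (19.6% higher) and somatotrophs (19.6% higher) exceed those of all genes, and the FSC share of 15.2% lies beside a background of 16.5%.

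By level alone, 10 of the 54 genes peaked in leukocytes, 10 in endothelial cells, 9 in FSC and 25 in one of the 5 hormone-producing types. The share of all genes with such peaks was not counted, so nothing is read from these counts. They include genes too low to test, such as *Pde6g* with 3 UMIs in thyrotrophs. Few of these peaks stood above every other type: 6 genes passed the limit against each of the other 7 types taken singly, a count without an all-gene share beside it. These were *Pde2a* in endothelial cells and *Rgs1*, *Rgs2*, *Rgs10*, *Rgs18* and *Rgs19* in leukocytes, and *Adcy6* was below each other type in leukocytes.

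**Figure D2:**
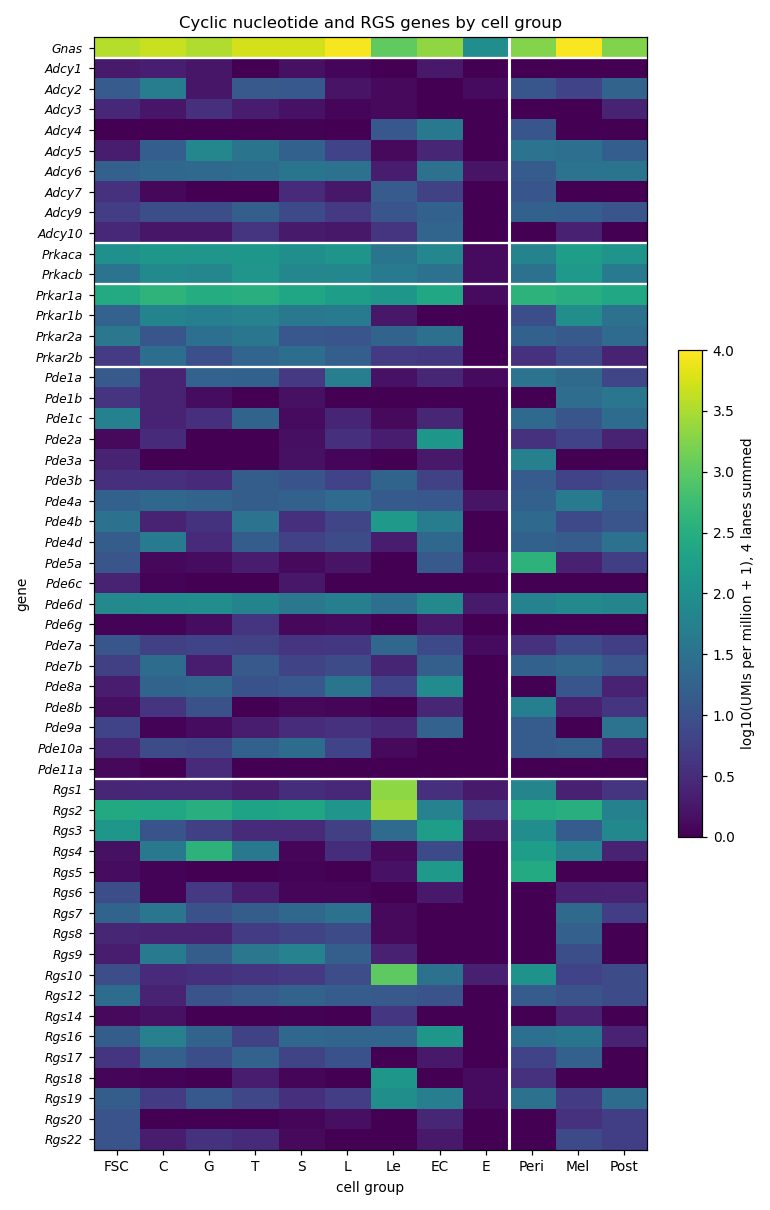
Level of each signalling gene (rows, grouped by family) in each of 9 cell types and in pericytes (Peri), melanotrophs (Mel) and posterior pituitary cells (Post) in columns, as the log10 of UPM plus 1 over all 4 lanes. *Gnas* is high in every type but erythrocytes (1061 UPM in leukocytes to 8843 UPM in lactotrophs), while most cyclases, phosphodiesterases and Rgs genes differ from type to type.

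*Gnas* was present in every pituitary type and was highest in lactotrophs. Its lactotroph level was 8488 and 8531 UPM in the female lanes and 8963 and 10147 UPM in the male lanes, somatotrophs and thyrotrophs stood at 5443 and 5499.9 UPM, corticotrophs at 4539.8, FSC at 3548 and gonadotrophs at 3319.6 UPM. Leukocytes and endothelial cells were lower, at 1061 and 2197 UPM, and erythrocytes, in which globin fills the library, stood at 89.8 UPM. The lanes of lactotrophs lay above those of every other fitted type. Against the mean of the other types the log2 fold change of *Gnas* was 1.81 ± 0.14 (SE, 2 pools per type) in lactotrophs (adjusted p = 1.34e-07) and 0.98 ± 0.15 in somatotrophs (adjusted p = 1.00e-04), and it was lower in leukocytes (-1.64 ± 0.18, adjusted p = 1.74e-06) and endothelial cells (-1.28 ± 0.18, adjusted p = 3.03e-05). These folds are scaled by trimmed means of M values (TMM), so they differ from the ratios of the UPM levels. The TMM factors of the female sums were 0.784 in somatotrophs, 0.655 in lactotrophs, 0.783 in leukocytes and 1.27 in endothelial cells. Leukocytes and endothelial cells hold few hormone UMIs, so the factors do not follow the hormone share alone. With library sizes alone the somatotroph value was 0.61 ± 0.12 (adjusted p = 0.00106). No pair of neighbours in the order of levels passed the limit. Lactotrophs over thyrotrophs came to 1.13 ± 0.21 (adjusted p = 0.0043) and gonadotrophs over endothelial cells to 0.81 ± 0.21 (adjusted p = 0.0068), while FSC over gonadotrophs was 0.02 ± 0.21 (adjusted p = 0.973). Lactotrophs over somatotrophs, which are not neighbours, was 0.72 ± 0.21 (adjusted p = 0.0420). FSC were below the mean of the 5 hormone-producing types by -0.87 ± 0.17 (adjusted p = 6.61e-04).

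Over all lanes, corticotrophs led in *Adcy2* and gonadotrophs in *Adcy5*, while *Adcy6* was shared across the gland. *Adcy2*, a cyclase that G protein beta-gamma dimers can stimulate, was at 31.7 and 49.8 UPM in the female and 51.8 and 53.4 UPM in the male lanes of corticotrophs. FSC held 13.2 UPM, thyrotrophs 12.3 and somatotrophs 11.6, and endothelial cells, gonadotrophs, lactotrophs and leukocytes at most 0.718 UPM. The corticotroph lanes did not overlap those of any other type. *Adcy2* passed in corticotrophs (adjusted p = 1.07e-08), somatotrophs (1.92e-05) and FSC (6.93e-05), and corticotrophs exceeded FSC by 2.17 ± 0.29 on the log2 scale (adjusted p = 2.2e-05).

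*Adcy5*, one of the cyclases that calcium and inhibitory G proteins restrain, was highest in gonadotrophs over all lanes, but not in the female pool. Gonadotroph lanes read 36.5 and 61.3 UPM in females and 91.2 and 129 UPM in males, thyrotrophs 33.8 UPM over all lanes, somatotrophs 16.5, corticotrophs 14.7 and lactotrophs 5.42 UPM. FSC, leukocytes and endothelial cells were at 0.995, 0.271 and 1.73 UPM. The gonadotroph level was 0.753-fold the thyrotroph level in the female pool and 5.14-fold in the male pool. The lanes of these 2 types overlapped, and their difference was 1.07 ± 0.52 (adjusted p = 0.31). Gonadotrophs over corticotrophs was 2.31, also short of the limit (adjusted p = 0.0015). Against the mean of the other types *Adcy5* was higher in gonadotrophs by 3.99 ± 0.35 (adjusted p = 7.69e-07) and in somatotrophs by 1.97 ± 0.37 (adjusted p = 6.57e-04), and FSC lay below the hormone-producing types by -4.69 ± 0.49 (adjusted p = 9.36e-07). The somatotroph call was lost with DESeq2 (adjusted p = 0.00175), with library sizes alone (1.60, adjusted p = 0.00688) and with outlier and doublet cells kept (adjusted p = 0.00141). The share of gonadotrophs with an *Adcy5* UMI was 48.5%, or 18.1% after each cell was thinned to 3000 UMIs.

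*Adcy6*, the close relative of *Adcy5*, was spread across the gland. Somatotroph lanes read 27.1 and 33.1 UPM in females and 38.0 and 37.2 UPM in males, lactotrophs 30.5 UPM over all lanes, endothelial cells 30.2, thyrotrophs 24.6, gonadotrophs 21.9, corticotrophs 21.8 and FSC 15.7 UPM. Leukocytes were lowest, at 1.08 UPM, a difference of -4.10 ± 0.47 (adjusted p = 2.09e-06). *Adcy6* passed as higher in somatotrophs (1.51 ± 0.19, adjusted p = 2.31e-05) and lactotrophs (1.37 ± 0.22, adjusted p = 2.49e-04), and the lactotroph call was lost without female lane 2 (1.22, adjusted p = 0.00113). Somatotrophs did not differ from lactotrophs beyond their error (0.12 ± 0.26, adjusted p = 0.83).

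The cyclases *Adcy4* and *Adcy7*, both of the beta-gamma-stimulated class, and the soluble, bicarbonate-sensitive *Adcy10* were highest in endothelial cells or leukocytes. *Adcy4* was at 34.7, 65.2, 31.9 and 25.7 UPM in the female and male lanes of endothelial cells and at 11.4 UPM in leukocytes, with 1 UMI in somatotrophs and 0 elsewhere in the fitted types (adjusted p = 2.61e-06 in endothelial cells and 7.85e-06 in leukocytes). DESeq2 did not call either value (adjusted p = 0.157 and 0.201). *Adcy7* was at 13.3 UPM in leukocytes (adjusted p = 2.97e-06), 5.18 in endothelial cells, 2.78 in FSC and 2.01 UPM in somatotrophs. Leukocytes over endothelial cells was 2.09 ± 0.71, short of the limit (adjusted p = 0.036). *Adcy10* was at 19.0 UPM in endothelial cells, 3.40 ± 0.55 above the other types (adjusted p = 1.31e-04), a call lost without male lane 3 (2.86, adjusted p = 0.00206). Thyrotrophs held *Adcy10* at 3.08 UPM and the other hormone-producing types at 0.718 to 0.947 UPM, and endothelial cells over thyrotrophs was 2.37 ± 0.94 (adjusted p = 0.061). *Adcy1* and *Adcy3*, cyclases known for calcium and calmodulin control and for the olfactory system, were at 1.18 UPM in corticotrophs and 2.51 UPM in gonadotrophs at their highest.

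PKA is a tetramer of regulatory and catalytic subunits, and the regulatory mix differed between the hormone-producing types and the rest. *Prkar1b*, a type I regulatory subunit best known from neurons, was at 62.9 UPM in corticotrophs, 58.4 in thyrotrophs, 53.2 in gonadotrophs, 44.5 in lactotrophs and 39.7 in somatotrophs. FSC had 16.8 UPM, leukocytes 0.812 UPM and endothelial cells 0 UMIs of 1158194, which allows up to 2.59 UPM. The corticotroph lanes (62.2, 54.5, 65.7 and 67.2 UPM) lay far above the FSC lanes (18.8, 18.1, 16.8 and 14.1 UPM). *Prkar1b* passed as higher in all 5 hormone-producing types, with adjusted p = 3.89e-07 in corticotrophs, 1.15e-06 in lactotrophs, 1.54e-06 in somatotrophs, 8.56e-06 in gonadotrophs and 5.14e-05 in thyrotrophs, and as lower in endothelial cells (2.06e-06). FSC lay below the hormone-producing mean by -1.93 ± 0.18 (adjusted p = 4.51e-07).

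*Prkar2b*, a type II regulatory subunit, followed a similar division, at 27.4 UPM in somatotrophs, 26.9 in corticotrophs, 19.5 in thyrotrophs and 15.5 in lactotrophs beside 8.62 in gonadotrophs, 4.14 in FSC, 3.79 in leukocytes and 3.45 in endothelial cells. Its fold change was 1.99 ± 0.21 in somatotrophs (adjusted p = 3.84e-06), 1.56 ± 0.23 in corticotrophs (adjusted p = 9.44e-05) and -1.77 ± 0.30 in FSC (adjusted p = 1.62e-04). The FSC call was lost without female lane 2 (-1.71, adjusted p = 0.00137) and without male lane 4 (-1.55, adjusted p = 0.00273), while FSC against the hormone-producing types gave -2.45 ± 0.28 (adjusted p = 2.69e-06). *Prkar2a* went the other way without passing in any type: FSC were at 38.1 UPM, thyrotrophs 35.9, gonadotrophs 27.7, corticotrophs 10.8, somatotrophs 11.4 and lactotrophs 10.4 UPM, and FSC exceeded corticotrophs by 1.68 ± 0.27 (adjusted p = 1.0e-04). *Prkar1a*, the widespread type I subunit, ranged from 128 UPM in leukocytes to 399 UPM in corticotrophs and passed in no type.

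As a share of all regulatory-subunit UMIs, *Prkar1a* held 70.5% in lactotrophs to 88.4% in endothelial cells. *Prkar1b* made up 18.7% in lactotrophs and 12.6% to 13.9% in the other hormone-producing types, 5.01% in FSC, 0.540% in leukocytes and none in endothelial cells. *Prkar2b* made up 8.88% in somatotrophs and 1.23% in FSC, and *Prkar2a* 11.4% in FSC and 2.15% in corticotrophs. These are shares of 3′ tags counted, and were not tested.

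Of the catalytic genes, *Prkacb* varied more than *Prkaca* among the pituitary types. Over all fitted types the ranges were alike, at 30.2 to 123 UPM for *Prkacb* and 33.8 to 131 UPM for *Prkaca*. *Prkacb* was at 123 UPM in thyrotrophs, 79.5 in corticotrophs, 71.0 in lactotrophs, 70.0 in gonadotrophs and 69.2 in somatotrophs, beside 43.8 in leukocytes, 32.3 in FSC and 30.2 in endothelial cells. It was lower in FSC (-1.29 ± 0.18, adjusted p = 1.90e-05) and in endothelial cells (-1.48 ± 0.24, adjusted p = 1.35e-04), and FSC lay -1.63 ± 0.18 below the hormone-producing types (adjusted p = 1.72e-06); the endothelial value without female lane 2 was -1.35 (adjusted p = 0.00171). *Prkaca* ran from 98.9 UPM in somatotrophs to 131 UPM in thyrotrophs, with FSC at 101, endothelial cells at 70.8 and leukocytes at 33.8 UPM. Leukocytes were lower by -1.29 ± 0.18 (adjusted p = 1.53e-05). The *Prkaca* calls in lactotrophs (0.76 ± 0.14, adjusted p = 7.81e-04) and endothelial cells (-0.93 ± 0.19, adjusted p = 8.27e-04) did not hold: leaving out lanes 1, 3 or 4 gave lactotroph values of 0.68, 0.75 and 0.71 (adjusted p = 0.00455, 0.00149 and 0.00421), and leaving out each lane in turn gave endothelial adjusted p values of 0.00113 to 0.0139. Over both pools *Prkacb* held 24.3% of catalytic-subunit UMIs in FSC, 29.9% in endothelial cells, 36.4% to 48.4% in the hormone-producing types and 56.4% in leukocytes. The thyrotroph share was uneven, at 27.8% of 72 UMIs in the female pool and 56.8% of 176 in the male pool. Endothelial cells of the male pool were at 36.7%, above the female thyrotrophs.

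**Figure D3:**
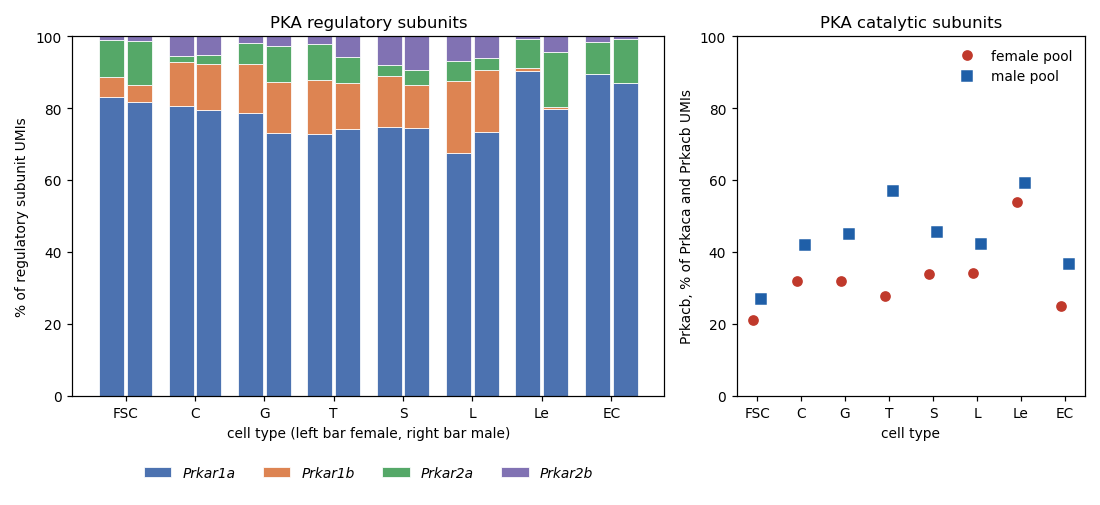
Share of PKA regulatory-subunit UMIs (percent) taken by *Prkar1a*, *Prkar1b*, *Prkar2a* and *Prkar2b*, and share of catalytic-subunit UMIs taken by *Prkacb*, in each of 8 cell types, with a bar or point for the female and the male pool. Over both pools *Prkar1b* takes 12.6% to 18.7% in the hormone-producing types, 5.01% in FSC and 0.540% or less in leukocytes and endothelial cells.

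Phosphodiesterases divided by cell type in each of their enzyme classes. The calcium and calmodulin-activated *Pde1a* and *Pde1c* were led by lactotrophs and FSC. *Pde1a* read 25.9 and 35.6 UPM in the female and 81.7 and 98.8 UPM in the male lanes of lactotrophs, beside 16.9 UPM in gonadotrophs, 16.4 in thyrotrophs, 12.2 in FSC and at most 3.64 in the other types. All 4 lactotroph lanes lay above those of every other type. The fold change was 4.05 ± 0.28 (adjusted p = 4.06e-08), and lactotrophs exceeded FSC by 2.65 ± 0.36 (adjusted p = 2.4e-05). Over gonadotrophs the difference was 2.06 ± 0.40, short of the limit (adjusted p = 0.0022).

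*Pde1c* read 61.3 and 66.7 UPM in the female and 51.1 and 45.3 UPM in the male lanes of FSC. Thyrotrophs followed with 8.02, 6.57, 12.6 and 36.4 UPM, below every FSC lane but from only 18 UMIs over all lanes. The other types had 2.51 UPM or less. *Pde1c* was higher in FSC by 4.91 ± 0.29 (adjusted p = 1.22e-09), and a UMI of it was found in 33.3% of FSC (15.3% at 3000 UMIs per cell). FSC over thyrotrophs was 1.52 ± 0.49 (adjusted p = 0.027). *Pde1b* was too low in these types to test.

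Of the cAMP-specific enzymes, *Pde4b* was highest in leukocytes, *Pde4d* and *Pde7b* in corticotrophs and *Pde8a* in endothelial cells and lactotrophs. *Pde4b* was at 164, 162, 138 and 114 UPM in the female and male lanes of leukocytes, 48.4 UPM in endothelial cells, 31.8 in thyrotrophs and 29.9 in FSC, and 5.90 UPM or less elsewhere. It was higher in leukocytes by 4.48 ± 0.29 (adjusted p = 2.63e-09), lower in corticotrophs by -3.46 ± 0.59 (adjusted p = 2.93e-04), and higher in FSC than in the hormone-producing types by 2.39 ± 0.35 (adjusted p = 3.38e-05). Leukocytes over endothelial cells was 2.21 ± 0.49, short of the limit (adjusted p = 0.0026). Their level was 7.4-fold the endothelial one in the female pool and 1.47-fold in the male pool. *Pde4d* read 38.4, 33.2, 53.3 and 45.5 UPM in corticotroph lanes, above the 21.6 UPM of endothelial cells and the 14.1 UPM of FSC, a fold change of 2.67 ± 0.28 (adjusted p = 2.83e-06). Over endothelial cells alone the difference was 1.28 ± 0.46, short of the limit (adjusted p = 0.035). *Pde7b* was at 25.3 UPM in corticotrophs, 2.26 ± 0.36 above the mean of the other types (adjusted p = 1.83e-04). Endothelial cells followed at 15.5 UPM and thyrotrophs at 12.3 UPM. Corticotrophs over endothelial cells was 0.98 ± 0.61 (adjusted p = 0.21). *Pde7a* (2.30 ± 0.36, adjusted p = 5.70e-05) and the cGMP-inhibited *Pde3b* (2.32 ± 0.31, adjusted p = 1.25e-05) were higher in leukocytes, with *Pde3b* at 18.1 UPM there. Thyrotrophs held *Pde3b* at 14.4 UPM, and leukocytes over thyrotrophs was 1.03 ± 0.51 (adjusted p = 0.11). *Pde4a*, by contrast, was even, between 11.2 and 24.4 UPM, and passed in no type.

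*Pde8a*, a cAMP enzyme of high affinity, was all but absent from FSC. Endothelial lanes read 93.4, 74.9, 78.0 and 82.4 UPM, lactotrophs 23.1 and 20.2 UPM in females and 50.9 and 61.7 UPM in males, gonadotrophs 20.1 and corticotrophs 18.6 UPM over all lanes, and FSC 1.10 UPM. The endothelial lanes were above all lactotroph lanes, yet with TMM scaling the difference was within its error (0.56 ± 0.31, adjusted p = 0.16). *Pde8a* was higher in endothelial cells by 2.65 ± 0.26 (adjusted p = 5.02e-07) and lactotrophs by 2.01 ± 0.22 (adjusted p = 7.17e-06), and lower in FSC by -4.25 ± 0.35 (adjusted p = 6.72e-08). Its relative *Pde8b* was low, and highest in gonadotrophs, at 4.29, 7.39, 16 and 15.0 UPM (adjusted p = 1.87e-04), though not apart from corticotrophs (1.68, adjusted p = 0.11).

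*Pde2a* and *Pde9a* were highest in endothelial cells, and *Pde5a* was shared with FSC. *Pde2a*, which cGMP activates, read 85.4 and 143 UPM in the female and 121 and 216 UPM in the male lanes, and the next type, lactotrophs, had 2.55 UPM. No other lane of any type came near, and endothelial cells exceeded lactotrophs by 4.98 ± 0.44 (adjusted p = 8.8e-07; against the mean of all types, adjusted p = 1.34e-10). A *Pde2a* UMI was seen in 60.4% of endothelial cells (38.1% at 3000 UMIs per cell) and in 0 of 361 erythrocytes. The cGMP-specific *Pde5a* was shared by endothelial cells (12.1 UPM) and FSC (10.2 UPM, lanes of 11.5, 10.0, 9.46 and 10.1), which did not differ beyond their error (0.04 ± 0.60, adjusted p = 0.97). It passed in FSC (adjusted p = 2.84e-06) and in endothelial cells (2.42e-04), the latter call lost without female lane 2 (3.58, adjusted p = 0.00702). *Pde9a*, also cGMP-specific, was at 17.3 UPM in endothelial cells (3.39 ± 0.54, adjusted p = 1.14e-04), and this call was lost without male lane 4 (3.09, adjusted p = 0.00117).

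*Pde10a*, which degrades both messengers, was highest in somatotrophs, at 28.0 and 23.8 UPM in the female and 23.8 and 24.4 UPM in the male lanes. Thyrotrophs had 16.4 UPM from only 16 UMIs, with lanes of 6.57 to 20.2, corticotrophs 7.21, FSC 1.89 and endothelial cells 0 UMIs. It passed in somatotrophs (adjusted p = 4.79e-06), which exceeded FSC by 4.43 (adjusted p = 7.4e-06). Short of the limit were somatotrophs over corticotrophs (2.19, adjusted p = 0.0041) and over thyrotrophs (1.20 ± 0.63, adjusted p = 0.29). *Pde6d*, a carrier of lipid-modified proteins and not an enzyme, was at 28.4 UPM in leukocytes and 37.4 to 89.1 UPM elsewhere, and its lower value in leukocytes (-0.81 ± 0.16, adjusted p = 5.07e-04) lost its call without any one of the 4 lanes (-0.68 to -0.76). The photoreceptor enzymes *Pde6c* and *Pde6g* were too low to test, as was *Pde11a*, at 2.15 UPM in gonadotrophs.

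The Rgs genes held the sharpest restriction, and 5 of them separated leukocytes from every other type. *Rgs1*, known from lymphoid cells, read 2265 and 2352 UPM in the female and 1739 and 1997 UPM in the male lanes of leukocytes. The other fitted types had 1.03 to 2.59 UPM and erythrocytes 0.952 UPM. A *Rgs1* UMI was found in 91.2% of leukocytes (86.3% at 3000 UMIs per cell) beside 0.831% of erythrocytes, whose median depth was 8246 UMIs. The log2 fold change was 10.56 ± 0.18 (adjusted p = 1.67e-16).

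*Rgs10*, an Rgs protein of microglia and other myeloid cells, read 1023, 1103, 955 and 971 UPM in leukocyte lanes, with endothelial cells next at 30.2 UPM (difference 5.87 ± 0.34, adjusted p = 3.7e-09). *Rgs18*, known from platelets and myeloid cells, read 116, 118, 142 and 138 UPM (adjusted p = 9.34e-12). *Rgs19* read 92.7, 96.6, 94.3 and 100.4 UPM there and 50.9 UPM in endothelial cells, and passed in both (3.97 ± 0.17, adjusted p = 1.04e-11, and 2.08 ± 0.25, adjusted p = 5.38e-06). All 4 leukocyte lanes of each of these genes lay above every lane of the other types. In the other direction, *Rgs10* was lower in corticotrophs (-2.68 ± 0.39, adjusted p = 7.63e-05, but -2.46 and adjusted p = 0.00153 without female lane 2), and *Rgs19* was lower in corticotrophs (-1.79 ± 0.27, adjusted p = 9.95e-05) and somatotrophs (-2.03 ± 0.25, adjusted p = 1.23e-05).

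*Rgs2*, an inhibitor of Gq signalling that can also dampen adenylyl cyclase, was highest in leukocytes and present in every fitted type. Leukocyte lanes read 2754, 2792, 2269 and 2473 UPM. Gonadotrophs had 323 UPM, FSC 272, corticotrophs 249.8, somatotrophs 229.7, thyrotrophs 208, lactotrophs 119 and endothelial cells 58.7 UPM. The gene was higher in leukocytes by 4.35 ± 0.21 (adjusted p = 3.91e-11) and lower in endothelial cells by -2.78 ± 0.37 (adjusted p = 1.63e-05). Its share of cells ran from 30.6% in endothelial cells to 96.7% in leukocytes, and 2.77% of erythrocytes had a UMI.

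*Rgs4*, a regulator of Gi and Gq known from neurons and heart, was higher in gonadotrophs than in the other fitted types. Its level was 538 and 427 UPM in the female and 166 and 169 UPM in the male lanes, and corticotrophs and thyrotrophs followed with 40.6 and 40.0 UPM. Even the lower male lanes were above every lane of the other fitted types. *Rgs4* was higher in gonadotrophs by 6.71 ± 0.33 (adjusted p = 1.07e-09) and in corticotrophs by 3.45 ± 0.39 (adjusted p = 5.74e-06), and gonadotrophs exceeded corticotrophs by 2.85 ± 0.44 (adjusted p = 3.5e-04). A UMI was present in 64.6% of gonadotrophs (38.0% at 3000 UMIs per cell) and in no erythrocyte. The small group of pericytes described later held *Rgs4* at 167 UPM (128 to 215), in 45.1% of its cells, near the male gonadotroph lanes.

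*Rgs7* and *Rgs9*, which act together with the G protein subunit Gnb5, were shared by several hormone-producing types. *Rgs9*, best known from photoreceptors and striatum, read 62.7 and 68.3 UPM in the female and 60.8 and 48.3 UPM in the male lanes of somatotrophs, 42.1 UPM in corticotrophs, 36.9 in thyrotrophs, 15.5 in lactotrophs and 14.0 in gonadotrophs. FSC were at 0.995 UPM and endothelial cells had none. It passed in somatotrophs (adjusted p = 3.71e-07) and corticotrophs (2.24e-05), which did not differ from each other at the limit (0.89 ± 0.36, adjusted p = 0.093). FSC lay -5.19 ± 0.48 below the hormone-producing types (adjusted p = 3.77e-07). *Rgs7* was at 36.5 UPM in corticotrophs (lanes of 36.8, 31.3, 42.4 and 34.3), 29.7 in lactotrophs, 20.4 in somatotrophs and 17.9 in FSC. It passed in corticotrophs (2.68e-06), lactotrophs (2.94e-06) and somatotrophs (4.06e-05), and corticotrophs and lactotrophs did not differ beyond their error (-0.13 ± 0.27, adjusted p = 0.80). *Rgs17*, a regulator of Gz and Gi, was at 17.4 UPM in thyrotrophs and 15.8 in corticotrophs, and passed in corticotrophs (1.24e-04).

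FSC shared *Rgs3* with endothelial cells and had the highest level of 3 low Rgs genes, without passing over the next type. *Rgs3*, a regulator of Gi and Gq, read 174, 167, 95.3 and 97.5 UPM in FSC lanes and 176, 176, 149 and 159.6 UPM in endothelial lanes. Leukocytes had 24.4 UPM and the hormone-producing types 2.05 to 9.79 UPM. *Rgs3* passed as higher in both FSC (3.59 ± 0.22, adjusted p = 2.03e-09) and endothelial cells (3.82 ± 0.27, adjusted p = 9.70e-09), and the difference between them was 0.21 ± 0.31 (adjusted p = 0.65). Its smaller calls were lost without single lanes: in leukocytes the 1.56 ± 0.32 (adjusted p = 6.92e-04) became 1.69 (adjusted p = 0.00124) without female lane 1 and 1.28 (adjusted p = 0.00455) without male lane 4, and in somatotrophs the -2.45 ± 0.47 (adjusted p = 8.24e-04) became -2.72 (adjusted p = 0.00615) without female lane 1 and -2.23 (adjusted p = 0.0116) without male lane 3.

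*Rgs20*, *Rgs22* and *Rgs6* were each under 10 UPM in FSC and passed there. *Rgs20* read 12.2, 12, 7.75 and 6.69 UPM in FSC lanes (adjusted p = 1.12e-05; DESeq2 gave 0.00311), *Rgs22* 4.40, 8.25, 11.2 and 13.2 UPM (adjusted p = 8.34e-06) and *Rgs6* 7.08, 8.03, 8.32 and 7.65 UPM (adjusted p = 2.45e-05). They were seen in 6.77%, 5.65% and 5.95% of FSC. None passed over the next type: *Rgs20* over endothelial cells was 2.56 ± 1.03 (adjusted p = 0.076). Over gonadotrophs, *Rgs22* was 1.42 ± 0.65 (adjusted p = 0.10) and *Rgs6* 0.92 ± 0.73 (adjusted p = 0.36). *Rgs16*, a regulator of Gi and Gq, passed in endothelial cells (2.46 ± 0.43, adjusted p = 2.59e-04), but its lanes there were uneven, at 181, 39.1, 209 and 61.8 UPM. Those lanes overlapped the corticotroph lanes of 49.8 to 59.5 UPM, and the call was lost without female lane 1 (1.97, adjusted p = 0.00642) or male lane 3 (2.04, adjusted p = 0.00284). *Rgs12* was lower in corticotrophs (-3.21 ± 0.47, adjusted p = 8.48e-05). *Rgs8* was at 7.18 UPM in lactotrophs and 5.49 UPM in somatotrophs and passed in no type, and *Rgs14* was at 3.25 UPM in leukocytes.

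**Figure D4:**
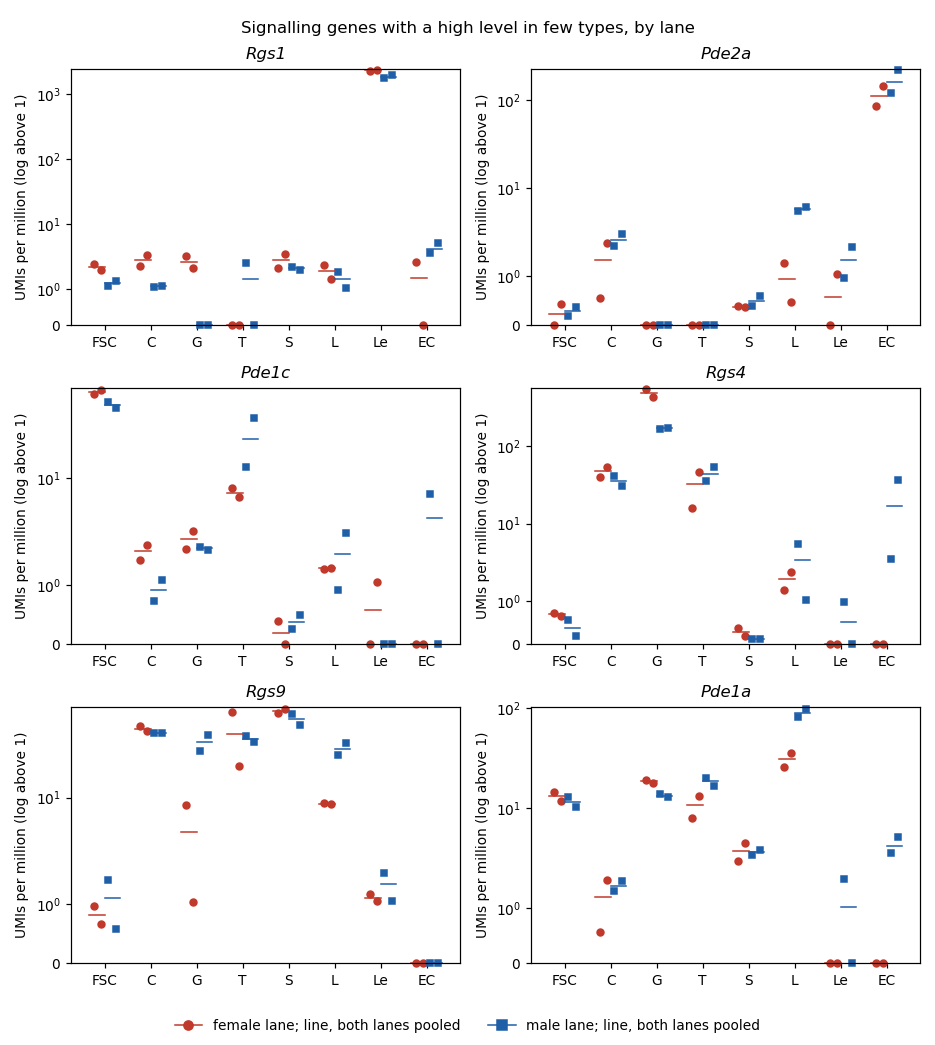
Level per lane (UPM, on an axis that is linear up to 1 and logarithmic above) of *Rgs1*, *Pde2a*, *Pde1c*, *Rgs4*, *Rgs9* and *Pde1a* in 8 cell types, with female lanes as circles, male lanes as squares and the pooled level of each sex as a line. The leukocyte lanes of *Rgs1* (1739 to 2352 UPM) and the gonadotroph lanes of *Rgs4* (166 to 538 UPM) lie above every lane of the other fitted types.

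FSC against the 5 hormone-producing types together gave 9 genes higher (19.6% of 46, beside 17.2% of all genes) and 11 lower (23.9%, beside 9.20%). The higher genes were *Rgs3* (4.71 ± 0.24, adjusted p = 2.83e-10), *Pde1c* (4.46 ± 0.28, adjusted p = 2.65e-09), *Pde5a*, *Pde9a*, *Pde4b*, *Rgs6*, *Rgs19*, *Rgs20* and *Rgs22*. The lower genes were *Gnas*, *Adcy5*, *Adcy6* (-1.06 ± 0.22, adjusted p = 8.56e-04), *Pde8a* (-4.17 ± 0.36, adjusted p = 1.00e-07), *Pde10a*, *Prkacb*, *Prkar1b*, *Prkar2b*, *Rgs4* (-4.77 ± 0.75, adjusted p = 6.56e-05), *Rgs9* and *Rgs17*. The median log2 fold change of the 46 was -0.28, beside 0.09 for all genes.

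*Rgs5*, a marker of pericytes in many tissues, passed in endothelial cells (adjusted p = 4.61e-07), but its 170 UMIs there came from few cells. Lanes read 18.7 and 19.6 UPM in females and 259 and 432 UPM in males, from 7, 6, 73 and 84 UMIs. Only 16 of the 134 endothelial cells held any *Rgs5*, with up to 44 UMIs in 1 cell, and all 16 also had the endothelial transcripts *Kdr* and *Plvap*. *Plvap* was one of the genes used to assign endothelial cells, so its presence is no separate evidence. Of the 118 without *Rgs5*, 118 held *Plvap* and 113 held *Kdr*. The pericyte transcripts *Pdgfrb* and *Cspg4* were each present in 4 of those 16 cells and in 0 of the other 118. The part of pericyte RNA in this value was not tested beyond these counts.

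Small groups of cells outside the 9 types, which were too few to test and are given with exact Poisson intervals for counting error only, held some genes at higher levels than any type. Pericytes were the 51 cells assigned by the study's markers for them, *Col1a1*, *Col1a3*, *Dcn* and *Lum*. In these cells *Pde5a* stood at 387 UPM (95% interval 325 to 456), 32.0-fold the endothelial level, with lanes of 424, 584, 323 and 343 UPM. *Pde3a*, a cGMP-inhibited enzyme known from vascular smooth muscle, was at 54.8 UPM (33.5 to 84.7), *Pde8b* at 52.1 UPM and *Rgs5* at 274 UPM, in 14 of the 51 cells. This group also held 24 UMIs of *Rgs1* and 41 of *Rgs10*, which are leukocyte genes here. In 63 melanotrophs, 59 of them from males, *Gnas* was at 9196 UPM, near the lactotroph level, *Pde1b* at 25.5 UPM (15.4 to 39.8), 8.70-fold the FSC level, and *Pde4a* at 43.0 UPM. In 60 posterior pituitary cells, 56 from males, *Pde1b* was at 35.7 UPM and *Pde9a* at 32.7 UPM. *Rgs8* was at 16.1 UPM in melanotrophs. Because nearly all melanotroph and posterior cells came from the male pool, these values describe that pool.

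Promoters of the genes were searched for TGACGT or its reverse complement ACGTCA, the core of the cAMP response element, from 250 bases before to 50 bases after each start site in RefSeq (GRCr8). Of 41 signalling genes with a promoter in the table, 5 (12.2%) held the motif, beside 2384 of 27457 symbols (8.68%). The windows around it are shown because *Rgs2* in somatotrophs had the lowest adjusted p of the differences between the sexes, as described after the pathway lists, and *Rgs1*, *Pde10a*, *Pde4d* and *Pde4a* are the other holders, with the motif in capitals and each sequence on the gene's strand:
Rgs2, chr13:58352866-58352895, minus strand: gatgcggcgcctACGTCAacagcgccctca
Rgs1, chr13:58573296-58573325, minus strand: tcttcaagatacACGTCActacacaccaag
Pde10a, chr1:54765830-54765859, minus strand: aggtccggctgcTGACGTccaagcctctgc
Pde10a, chr1:54765756-54765785, minus strand: acgaggctgcagACGTCAtcgcctcctgtt
Pde4d, chr2:42592543-42592572, plus strand: gggggaggagggTGACGTtgaacaggcttc
Pde4a, chr8:27966964-27966993, plus strand: agcgtcggcgcaTGACGTtcgtccttagca
Pde4a, chr8:27999382-27999411, plus strand: tggcacagctcgACGTCAggctggggaggg
The motif began 217 bases before the start in *Rgs2*, 126 in *Rgs1*, 179 and 105 in *Pde10a*, 194 in *Pde4d*, and 11 and 19 before 2 separate starts of *Pde4a*. The holders did not share a cell type of highest level: *Rgs1* and *Rgs2* peaked in leukocytes, *Pde10a* in somatotrophs, *Pde4d* in corticotrophs and *Pde4a* in lactotrophs.

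The neighbours of these genes in the pathway were taken from lists of receptors, other G proteins and effectors. Their counts stand beside all-gene shares of 17.9% higher and 9.60% lower in leukocytes, 12.1% higher in endothelial cells and 3.27% to 16.5% higher in the pituitary types, and nothing is read from a count of 1 to 3 genes in a list. Of 11 tested G protein alpha subunits other than *Gnas*, 4 were higher and 3 lower in leukocytes, and 1 to 3 were higher in each pituitary type. *Gnao1*, the alpha subunit Go on which many Rgs proteins act, was at 53.5 to 117 UPM in the 6 pituitary types and 1.08 and 3.45 UPM in leukocytes and endothelial cells (-5.11 ± 0.49, adjusted p = 2.8e-07, and -4.03 ± 0.51, adjusted p = 9.8e-06). Of the partners of *Rgs7* and *Rgs9*, the membrane anchor *Rgs7bp* was at 23.9 UPM in somatotrophs (2.92 ± 0.24, adjusted p = 2.6e-07) and 14.5 in corticotrophs (1.66 ± 0.28) beside 0.419 in FSC (-4.30 ± 0.54, adjusted p = 8.4e-06). *Gnb5* was at 5.41 UPM in leukocytes (-2.90 ± 0.28, adjusted p = 3.1e-07) and 30.2 to 72.8 UPM in the other types.

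Of 18 tested cAMP effectors and targets, 4 were higher and 4 lower in leukocytes, 4 were higher in endothelial cells, and 1 to 3 were higher in each of the other types. *Rapgef3*, a cAMP-activated exchange factor, was at 36.3 UPM in endothelial cells and 9.11 in FSC, while its relative *Rapgef4* was at 39.7 UPM in corticotrophs (2.53 ± 0.30, adjusted p = 1.6e-05). The cGMP list, with 5 genes tested, had 2 higher in FSC, among them the soluble guanylyl cyclase subunit *Gucy1a3* at 70.2 UPM (4.43 ± 0.31, adjusted p = 8.9e-09), and 1 in endothelial cells, the natriuretic peptide receptor *Npr1* at 105 UPM (6.33 ± 0.36, adjusted p = 7.3e-10). Endothelial cells held *Npr1* beside *Pde2a*, and FSC *Gucy1a3* beside *Pde5a*. Of 4 tested cyclic nucleotide gated channels, *Cnga1* was at 218 UPM in gonadotrophs and at most 3.51 UPM elsewhere.

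Among 7 tested inhibitory receptors, the dopamine receptor *Drd2* was at 52.9 UPM in lactotrophs and at most 2.05 UPM elsewhere, and the somatostatin receptor *Sstr2* at 33.8 UPM in thyrotrophs and 19.2 in somatotrophs. Among 13 tested stimulatory receptors, 4 were higher in leukocytes and 3 in FSC, including *Adcyap1r1*, the PACAP receptor, at 65.0 UPM in FSC (5.76 ± 0.51, adjusted p = 3.3e-07) and 30.2 UPM in gonadotrophs. The receptors *Ghrhr*, *Crhr1*, *Avpr1b*, *Gnrhr* and *Trhr* had been used to assign the cells, so their restriction is no result.

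The second question was whether the genes differed between the male and female pools within a pituitary type. Lanes were compared in each type, 2 against 2, with edgeR's quasi-likelihood test, so the adjusted p values measure lane-to-lane error only. Across 148 gene and type pairs tested, 20 passed, from 13 genes. Somatotrophs held 7 higher in males and 2 lower of 34 tested, beside 5.28% and 6.04% of all genes. Lactotrophs held 5 higher and 1 lower of 26 (background 5.21% and 10.9%), FSC 3 higher and 1 lower of 36 (1.39% and 2.09%), and gonadotrophs 1 lower of 17 (2.85%), with 0 higher (2.06%) by edgeR and DESeq2 and 4 at an unadjusted p under 0.05. Corticotrophs had 0 of 25 (0.202% and 0.413% of all genes) and thyrotrophs 0 of 10 (0.605% and 0.191%), by edgeR and by DESeq2, with 6 and 4 genes at an unadjusted p under 0.05. The median log2 difference over the genes was 0.25 in FSC and 0.24 in lactotrophs, beside 0.01 and 0.02 for all genes, and -0.08 in somatotrophs beside 0.01.

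*Rgs2* was higher in males in somatotrophs, lactotrophs and FSC. Somatotroph lanes read 83.1 and 81.8 UPM in females and 318 and 337 UPM in males, lactotroph lanes 79.7 and 56.3 against 206 and 239 UPM, and FSC lanes 192 and 201 against 343 and 325 UPM. In each of these types the lanes were far apart between the sexes and close within them. The differences were 1.93 ± 0.06 (adjusted p = 2.1e-28), 1.05 ± 0.13 (adjusted p = 2.4e-07) and 0.72 ± 0.06 (adjusted p = 1.9e-08). In gonadotrophs the lanes read 283 and 256 against 406 and 461 UPM (0.42 ± 0.12, adjusted p = 0.022) and in corticotrophs 226 and 213 against 249 and 295 UPM (0.25 ± 0.08, adjusted p = 0.13), neither past the limit. The thyrotroph difference was 1.01 ± 0.35 (adjusted p = 0.149), also short of it. The immediate early gene *Nr4a1*, which moves with recent stimulation and with handling of cells, read 51.4, 55.4, 219 and 251 UPM in somatotroph lanes and 104, 125, 364 and 356 UPM in lactotroph lanes, but 625, 643, 454 and 421 UPM in FSC. *Fos* read 1285, 1336, 1563 and 1518 UPM in somatotrophs, 846, 985, 3584 and 3568 UPM in lactotrophs, 1681, 1569.8, 3196 and 3249.9 UPM in gonadotrophs, and 12241, 11317, 8412 and 7858 UPM in FSC. *Jun*, *Egr1* and *Dusp1* were likewise above the female lanes in both male lanes of lactotrophs, with *Egr1* at 113, 124, 363 and 342 UPM. These are unscaled levels, and with library sizes alone the median log2 difference of all lactotroph genes was 0.67. The same genes were higher in both male lanes of somatotrophs and lower in both of FSC, where *Jun* read 4869, 4411, 3282 and 3227 UPM. In gonadotrophs *Jun* and *Egr1* were higher in males, while the *Dusp1* lanes overlapped. The part of these genes in the *Rgs2* values was not tested.

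*Rgs4* and *Rgs3* were the genes lower in males with the clearest separation. In gonadotrophs the *Rgs4* lanes given above (538 and 427 against 166 and 169 UPM) made a difference of -1.78 ± 0.14 (adjusted p = 1.8e-07). In FSC the *Rgs3* lanes (174 and 167 against 95.3 and 97.5 UPM) made -0.86 ± 0.07 (adjusted p = 1.5e-08).

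*Rgs16* moved in opposite directions. It was higher in males in FSC (7.08 and 5.57 against 18.7 and 22.6 UPM, 1.67 ± 0.21, adjusted p = 9.2e-06) and in lactotrophs (12.3 and 6.73 against 31.8 and 45.3 UPM, 1.34 ± 0.30, adjusted p = 8.1e-04), and lower in somatotrophs (22.8 and 28.4 against 15.0 and 18.7 UPM, -0.66 ± 0.14, adjusted p = 2.2e-04). The lactotroph call was lost without female lane 2 (0.96, adjusted p = 0.0132) or male lane 4 (1.09, adjusted p = 0.0128), and the somatotroph call without female lane 2 (-0.47, adjusted p = 0.0357) or male lane 3 (-0.51, adjusted p = 0.00743). DESeq2 called neither (adjusted p = 0.0443 in lactotrophs and 0.0446 in somatotrophs), and the somatotroph call was also lost with library sizes alone (0.00181) and without hormone and globin genes (0.00284).

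In somatotrophs the other genes higher in males were *Prkacb* (54.9 and 51.3 against 78.3 and 81.5 UPM, 0.53 ± 0.08, adjusted p = 5.3e-07), *Rgs12* (12.6 and 10.2 against 21.9 and 21.8 UPM, 0.88 ± 0.15, adjusted p = 1.1e-05), *Adcy2* (6.42 and 7.94 against 13.5 and 15.6 UPM, 0.96 ± 0.19, adjusted p = 1.2e-04), *Rgs7* (0.61 ± 0.13, adjusted p = 4.7e-04), *Pde3b* (5.84 and 6.46 against 10.9 and 13.5 UPM, 0.93 ± 0.21, adjusted p = 5.4e-04) and *Gnas*. *Pde7b* was lower (8.95 and 7.57 against 4.20 and 3.89 UPM, -1.08 ± 0.24, adjusted p = 5.8e-04). Several of these rested on single lanes: adjusted p reached 0.0115 for *Pde7b* without female lane 1, with calls also lost without male lanes 3 (0.00259) and 4 (0.00802), 0.0190 for *Pde3b* without male lane 4, also lost without female lanes 1 (0.00773) and 2 (0.00108), 0.00604 for *Adcy2* without female lane 1, also lost without male lane 4 (0.00230), 0.00836 for *Rgs7* without female lane 1, also lost without lanes 2 (0.00352) and 3 (0.00580), and 0.00118 for *Rgs12* without female lane 2. DESeq2 called none of *Rgs12* (adjusted p = 0.0105), *Adcy2* (0.0358), *Rgs7* (0.0844), *Pde3b* (0.0765) and *Pde7b* (0.0730). In FSC *Adcy2* was higher in males too (9.04 and 6.69 against 18.7 and 16.4 UPM, 1.13 ± 0.20, adjusted p = 6.5e-04), and was lost without female lane 2 (0.92, adjusted p = 0.00373) or male lane 3 (1.03, adjusted p = 0.00208) and with DESeq2 (adjusted p = 0.0560).

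Lactotrophs differed in depth between the sexes, with a median of 18331 UMIs per cell in females and 7242 in males, and *Prl* took 31.5% and 17.9% of their UMIs. *Prkar1a* was higher in male lactotrophs (122 and 113 against 272 and 268 UPM, 0.55 ± 0.10, adjusted p = 9.3e-05; 0.47 and adjusted p = 0.00463 without female lane 2), and so was *Pde1a* (0.89 ± 0.18, adjusted p = 3.3e-04; adjusted p = 0.0118 without female lane 1 and 0.00347 without male lane 4). *Prkacb* (48.1 and 46.7 against 132 and 104 UPM) was higher by 0.67 ± 0.15 (adjusted p = 9.1e-04), with adjusted p = 0.00369, 0.00743 and 0.0506 without lanes 1, 2 and 3. DESeq2 called none of *Prkar1a* (adjusted p = 0.00989), *Pde1a* (0.0251) and *Prkacb* (0.0611). *Gnas* depended on scaling: its lanes read 8488 and 8531 UPM in females and 8963 and 10147 UPM in males, and the difference was -0.49 ± 0.05 with TMM (adjusted p = 8.7e-10), -0.10 ± 0.04 with library sizes that leave out hormone and globin genes (adjusted p = 0.0711) and 0.17 ± 0.05 with library sizes alone (adjusted p = 0.00330). The median of all genes in lactotrophs was 0.02 with TMM, 0.41 with library sizes that leave out those genes and 0.67 with library sizes alone, and relative to it *Gnas* was lower in each case. In somatotrophs *Gnas* was higher in males (4865 and 4555 against 6079 and 5801 UPM, 0.28 ± 0.02, adjusted p = 5.8e-13). The male over female difference itself was then compared between types, each against the mean of the other 5, in 1 fit over the lanes. It passed 6 times, for *Rgs2* in somatotrophs and corticotrophs, *Gnas* in somatotrophs, lactotrophs and gonadotrophs and *Prkar1a* in lactotrophs, whose values are given at the end. The share of all genes that passed as higher and lower was 0.785% and 0.652% in FSC, 0.274% and 0.289% in corticotrophs, 0.459% and 1.14% in gonadotrophs, 0.637% and 0.0518% in thyrotrophs, 0.585% and 0.474% in somatotrophs and 1.89% and 4.66% in lactotrophs. As a share of catalytic-subunit UMIs, *Prkacb* was higher in the male pool in 8 of 8 fitted types, and its level was higher in 7 of 8. All these types come from the same 2 pools, so this is 1 comparison of pools, and it was not tested.

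**Figure D5:**
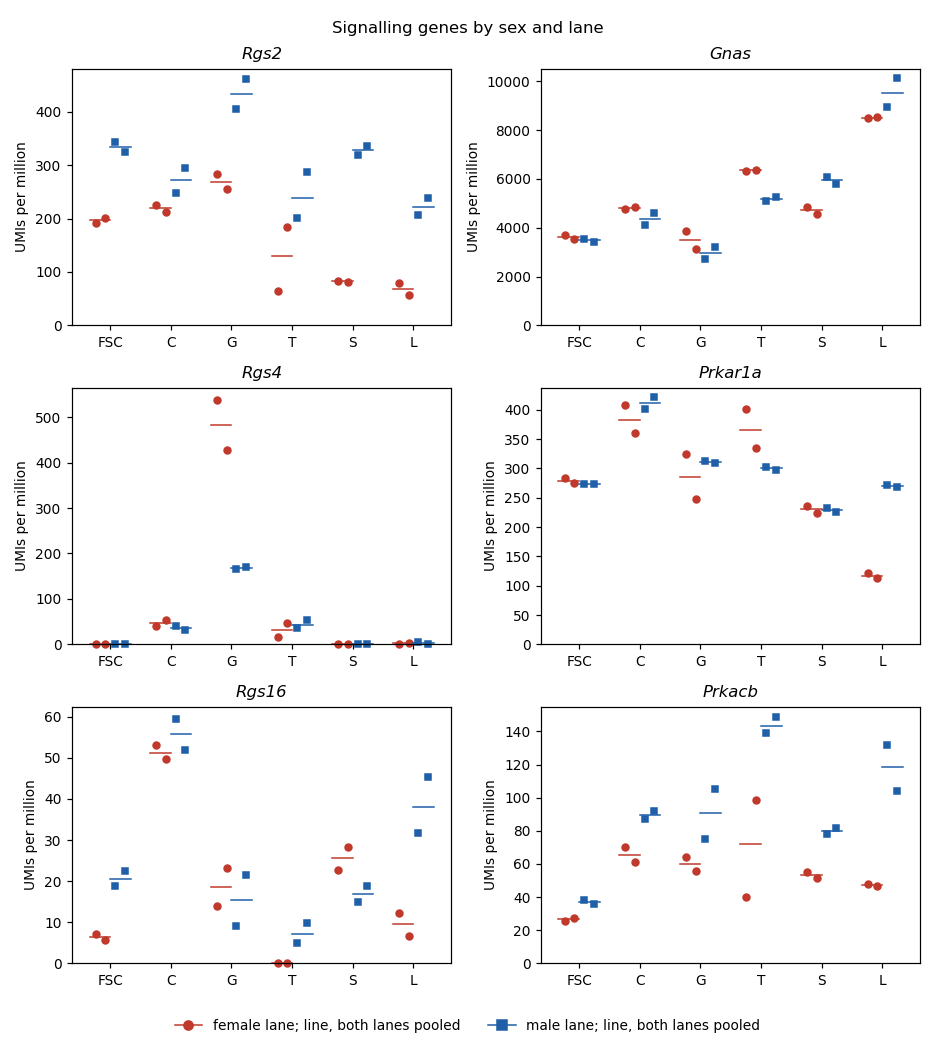
Level per lane (UPM, linear axes from 0) of *Rgs2*, *Gnas*, *Rgs4*, *Prkar1a*, *Rgs16* and *Prkacb* in the 6 pituitary types, with female lanes as circles, male lanes as squares and the pooled level of each sex as a line. *Rgs2* in somatotrophs (81.8 and 83.1 against 318 and 337 UPM) and *Rgs4* in gonadotrophs (427 and 538 against 166 and 169 UPM) show lanes of each sex close together and the sexes apart.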

How the data were processed

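Cells of 1 female and 1 male pool of rat anterior pituitaries were counted with 3′ droplet chemistry. Per the study's methods, the authors aligned reads with Cell Ranger 2.1 to a rat reference whose gene ends were extended, equalised depth between lanes and deposited 1 table of UMI counts (30058 genes, 7861 cells, 86742346 UMIs). Extension can add reads from neighbouring transcripts. Lanes were read from the barcode suffix and given to a sex by their number of cells, and no column was left unused.

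Cells were assigned with the study's marker genes by Otsu thresholds. A further 222 were assigned by their neighbours in a space of 1000 variable genes, which can include the genes reported, and 190 ambiguous cells, 277 with high mitochondrial share, 332 of extreme depth and 198 doublets by a simulation-based caller were removed. Duplicate symbols (549) were summed. The genes of interest, their pathway lists and the tests were chosen with earlier results of these data known.

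UMI counts were summed per type and pool (16 sums, sex as covariate) or per type and lane, and tested with edgeR 4.0.16 (quasi-likelihood, TMM, filterByExpr; R 4.3.3), with Benjamini-Hochberg adjustment over all genes of a contrast and a limit of 0.001. Pairs of types used the same fit. DESeq2 1.42.0 and the other settings given at the end were alternatives, and the scripts were checked on simulated counts. Cell steps used Python 3.11.15, numpy 2.4.6, scipy 1.17.1 and scikit-learn 1.9.0, and plots matplotlib 3.10.9. Named genes were *Gnas*, the PKA genes, up to 4 genes with the largest fold per type, up to 3 with the highest level per family, and up to 5 per type between the sexes; others were named to account for every member of the families. Levels are UPM over the kept cells of a lane or type, and intervals are exact 95% ones for counting error only. A count of 0 allows up to 3 UMIs. Nothing says that the lanes of a pool hold separate animals.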

Additional observations from a re-analysis of the deposited data

Results flagged for a closer look

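In 6 cases the male over female difference of a signalling gene in 1 pituitary type differed from the mean of that difference in the other 5 types, tested directly as an interaction over 24 lane sums with edgeR (adjusted p limit 0.001). The lanes of a sex are 1 pool, so these p values measure lane-to-lane error only.

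*Rgs2* passed in opposite directions in somatotrophs and corticotrophs. In somatotrophs its male excess was larger than the mean of the other types by 1.24 ± 0.13 on the log2 scale (adjusted p = 6.2e-10, beside 0.585% of all genes higher), and in corticotrophs smaller, by -0.79 ± 0.12 (adjusted p = 4.3e-05, beside 0.289% lower). Somatotroph lanes did not overlap between the sexes, and the corticotroph lanes, at 226 and 213 against 249 and 295 UPM, lay closer without overlap. Gonadotrophs had a value near that of corticotrophs, -0.64 ± 0.15, short of the limit (adjusted p = 0.0042). The mean set against corticotrophs and gonadotrophs includes the large male excess of somatotrophs.

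The male over female difference of *Prkar1a* in lactotrophs lay above the mean of the other types by 0.60 ± 0.11 (adjusted p = 4.9e-05, beside 1.89% of all genes). Within the other types the difference ran from -0.18 in thyrotrophs to 0.04 in corticotrophs, with no call. The interaction lost its call without male lane 3 (0.62) or lane 4 (0.60).

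*Gnas* gave 0.57 ± 0.08 in somatotrophs (adjusted p = 4.8e-06; 0.47 and adjusted p = 0.0122 without male lane 3), -0.43 ± 0.09 in gonadotrophs (adjusted p = 9.4e-04, beside 1.14% of all genes lower) and -0.37 ± 0.08 in lactotrophs (adjusted p = 7.8e-04, beside 4.66% lower). The gonadotroph call was lost without lanes 1, 3 or 4 (adjusted p = 0.0325, 0.213 and 0.0120), and the lactotroph call without lanes 2, 3 or 4 (0.00155, 0.130 and 0.00893). In gonadotrophs the *Gnas* lanes of the sexes overlapped. The gonadotroph call was also lost with library sizes alone (-0.23, adjusted p = 0.130) and without hormone and globin genes (-0.34, adjusted p = 0.00662). The lactotroph value was 0.25 with library sizes alone and -0.02 without hormone and globin genes. Beside it stood medians over all genes of -0.04 with TMM, 0.56 with library sizes alone and 0.30 without hormone and globin genes. *Gnas* in lactotrophs lay below the median in each case.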

How the results depend on the processing

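The 41 genes called in at least 1 type became 7 when a gene had to differ from each other type singly. The share of all genes was not counted for either. The 20 calls between the sexes became 10 with DESeq2, 9 of them among the 20, and 41 at an adjusted p limit of 0.05. *Gnas* in lactotrophs reversed with library sizes alone, both between the sexes (0.17) and in the interaction (0.25), where the medians of all genes were 0.67 and 0.56 and *Gnas* lay below both. Leaving out 1 lane at a time gave 38 to 40 genes called by type, 18 to 19 in FSC against hormone-producing types, 16 to 18 sex calls, 12 to 15 of them among the 20, and 2 to 6 interactions, 2 to 5 of them among the 6. Dropping single lanes and library sizes without hormone genes were chosen for the interaction after seeing the data. Over all settings, 856 of 920 type values, 152 of 200 sex values and 23 of 36 interaction values kept direction and side of the limit, 64, 47 and 12 lost the call, and 0, 1 and 1 reversed. With erythrocytes added, 13 of 77 type values lost the call. No paired analysis was possible because the barcodes carry lane numbers but not the replicate numbers of the labels. Type contrasts held the pool as a term. Sums per type and lane with lane as a term kept 74 of 74 type values, and the rest of the 77 were not tested there. The lanes of a sex are 1 pool, so that setting counts technical replicates and adds no independent support. Depth limits thyrotrophs (87 cells) and endothelial cells (134) most, where 1 UMI is about 1 UPM over all lanes together. In a single lane 1 UMI is more than that, most of all in female thyrotrophs, whose 2 lanes together held 276886 UMIs.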
